A study of Mus musculus with 6 samples.

Results

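The genes described here build the interstitial matrix, the meshwork that connective tissue and muscle precursor cells secrete around themselves. They were chosen by name: 38 genes for fibrillar and other collagens, collagen-processing and crosslinking enzymes, adhesive and matricellular proteins, elastic fibre proteins, small proteoglycans, matrix proteases and their inhibitors. Of these, 36 had at least 1 probe set (a group of short probes for a transcript) that the platform annotation assigns to a single gene, among 18193 such genes on the array. Each gene was represented by its brightest probe set, and 31 of the 36 had a mean signal above the median of all probe sets (23.4), as did 10775 genes in all. The 31 are not all members: Col1a1, Col11a1, Postn, Dcn and Lum lay below that level, and Loxl2 and Fbn1 were not analysed here.

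Fibrillar collagens are made as procollagen chains in the endoplasmic reticulum, where lysyl hydroxylases modify them and the chaperone HSP47 escorts the folded triple helix. After secretion the propeptides are cut off, the molecules line up into fibrils, and lysyl oxidases crosslink them through the modified lysines. Matricellular proteins such as thrombospondins and SPARC do not bear load but tune how cells attach to the matrix and respond to growth factors, and membrane-bound and secreted metalloproteases, held in check by TIMPs, remodel it. Myoblasts in culture secrete much of this matrix themselves, and integrins are the receptors through which they hold on to it.

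The arrays labelled induced (n = 3) came from C2C12 cells, an immortalised mouse myoblast line, that carry a tetracycline-inducible integrin alpha7 construct and were grown for 36 h with 1 µg/ml tetracycline. The noninduced arrays (n = 3) came from the same engineered line grown for 36 h without the drug. All cells were undifferentiated and shared a medium with 20% fetal bovine serum, chick embryo extract and antibiotics, and the study asked what raising integrin alpha7 does to transcription. The labels name no parental C2C12 cells given tetracycline, so an effect of the drug and an effect of the construct cannot be told apart, and they do not say whether the line is 1 clone. The series text calls the 3 samples of each condition biological replicates.

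Itga7, the gene the construct was built to raise, gave signals of 675, 727 and 676 on the arrays labelled induced, against 811, 778 and 786 on the noninduced arrays. Every array labelled induced was below every noninduced one (log2 fold change -0.19, SE 0.0583, limma adjusted p = 0.181), so the target's probe set goes against the label, and the direction of each result rests on the labels alone. The sources used here do not say whether that probe set can detect the construct's transcript. Of the 7 myoblast markers checked, 6 were above the median signal (Myod1, Myf5, Des, Cdh15, Chrna1 and Itga7) and Pax7 was below it. Their summed signal, which includes Itga7, was 6209 to 6492 on the arrays labelled induced, below the 6677 to 6769 of the noninduced arrays. Myod1 and Chrna1, the muscle acetylcholine receptor subunit, were lower without overlap (limma adjusted p = 0.261 and 0.227). The markers did not move together: Myf5 and Des had positive log2 fold changes (0.12 and 0.07) and Cdh15 a negative one (-0.12), each with overlapping groups. Acta1, the skeletal actin of differentiating muscle, was higher without overlap (limma adjusted p = 0.310). The other tested markers of differentiated muscle, Myog and Tnnc1, had negative log2 fold changes (-0.25 and -0.09) with overlapping groups. Ckm, Tnnt3 and Myh3 were below the median signal, and the summed markers of differentiated muscle overlapped. Of 5 fibroblast markers, 4 had a probe set and 1, Pdgfra, was above that level. The brightest Pdgfra probe set was higher without overlap (log2 0.56, limma adjusted p = 0.195). The summed signal of the 4 was 99.3 to 151 on the arrays labelled induced and 87.4 to 90.9 on the noninduced arrays. Summed adipocyte markers (3 probe sets) were 65.8 to 83.4 on the arrays labelled induced and 84.6 to 111 on the noninduced arrays. Of these, Cebpa alone was above that level, and its groups overlapped (log2 -0.09, limma adjusted p = 0.815), while Adipoq and Fabp4 were below it. The summed markers of macrophages, endothelium and epithelium overlapped between the groups. The part of these marker differences in the matrix results was not tested. By recorded hybridisation time, induced replicate 1 and the 3 noninduced arrays were assigned to 1 fluidics run. Induced replicates 2 and 3 were assigned to a later one. All noninduced arrays were scanned first, so that group and order of scanning cannot be told apart. Array signals cannot separate a change in the number of expressing cells from a change in RNA per cell.

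No matrix gene passed an adjusted p of 0.05 in limma with its brightest probe set, where 0.306% of all genes tested did. A dimmer probe set of Aebp1 was the single one of 61 tested matrix probe sets that passed, where 0.2% of all tested probe sets did. That call was lost when any array other than noninduced replicate 1 was left out. Differences were small. The genes leaned to lower signals on the arrays labelled induced: 22 of 31 had a negative log2 fold change and 9 a positive one, against 52.2% and 47.8% of all genes tested, and their median was -0.10, against -0.01 for all genes tested. At an unadjusted p of 0.05 in limma, 8 were lower, where 7.99% of all genes were, and 2 were higher, where 7.96% were. At an unadjusted p of 0.01 in limma, 3 were lower, where 2.5% of all genes were, and 1 was higher, where 3.14% were. The signals of the 2 groups did not overlap for 9 genes that were lower and 3 that were higher, against 11.6% and 10.7% of all genes tested.

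By brightness, the counts were as follows. Of 13 matrix genes with a mean signal above 1000, 11 were lower, with a median of -0.10, while 50.4% of the 1382 genes of that brightness were lower, with a median near 0. Of 12 genes between 100 and 1000, 6 were lower (median 0.04, against 0.00 for the 6202 genes of that brightness). Of the 6 genes under 100, 5 were lower (median -0.23, where 58.9% of the 3191 genes of that brightness were lower). These 6 had standard errors of 0.188 to 0.273 on the log2 scale, against 0.0410 to 0.0797 above 1000, so a difference of the size seen in bright genes was not detectable in them.

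**Figure D1:**
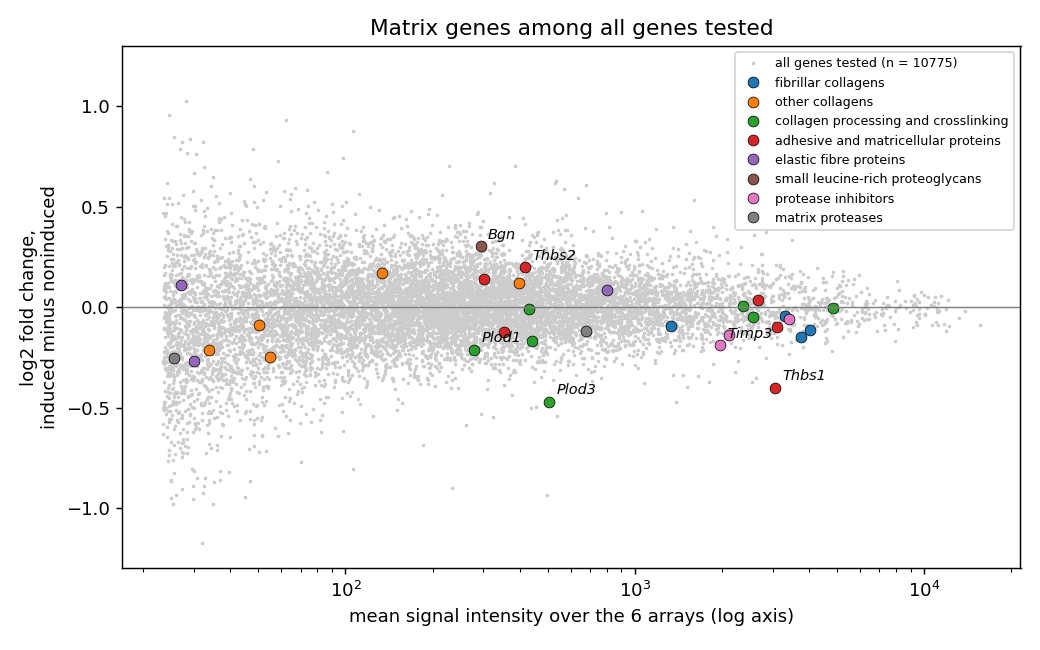
Log2 fold change of induced over noninduced arrays (vertical axis) against mean signal intensity (horizontal log axis) for all 10775 genes tested (grey) and the 31 matrix genes (coloured by role). Plod3 and Thbs1 lie lowest and Bgn and Thbs2 highest among the labelled matrix genes, and 11 of the 13 matrix genes above a signal of 1000 lie below 0.

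By role, the counts rest on few genes each, and differences between roles were not tested. All 4 fibrillar collagens tested and all 3 protease inhibitors were lower, as were 6 of 7 collagen-processing and crosslinking genes and both proteases. Adhesive and matricellular genes split evenly, 3 lower and 3 higher, other collagens 3 and 2, and elastic fibre genes 1 and 2. The medians were -0.11 for fibrillar collagens, -0.14 for protease inhibitors, -0.19 for proteases, -0.05 for processing and crosslinking genes, -0.03 for adhesive and matricellular genes, -0.09 for other collagens and 0.08 for elastic fibre genes. Leaving out single arrays turned the sign of 3 of them, which ranged from -0.285 to 0.0838 for other collagens, -0.0428 to 0.0029 for adhesive and matricellular genes and -0.0831 to 0.113 for elastic fibre genes, and moved that of the proteases between -0.288 and -0.0439. On single arrays, the median deviation of the fibrillar collagens from their noninduced mean was -0.08, -0.10 and -0.09 on the arrays labelled induced, against -0.03, 0.02 and 0.00 on the noninduced arrays. For the protease inhibitors it was -0.19, -0.06 and -0.12 on the arrays labelled induced, against -0.04, 0.03 and 0.02 on the noninduced arrays. Neither of these roles overlapped between the groups, and of single genes tested, 11.6% were lower without overlap. Their medians rest on 4 and 3 genes. Centring each array on its own median moved their median log2 fold changes to -0.012 and -0.045. The adhesive and matricellular median lay between -0.04 and 0.01 on the arrays labelled induced and between -0.07 and 0.03 on the noninduced arrays.

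**Figure D2:**
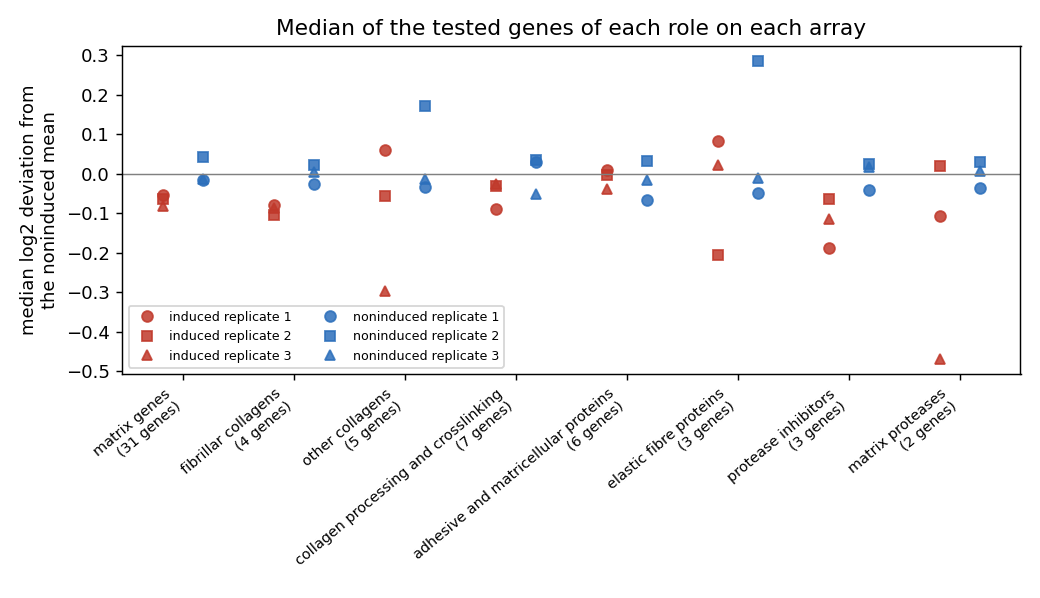
Median log2 deviation from the noninduced mean (vertical axis) of the tested genes of each role, 1 point per array (red, labelled induced, left of blue, noninduced). The fibrillar collagens and the protease inhibitors lie lower on all 3 arrays labelled induced than on all 3 noninduced arrays. These roles hold 4 and 3 tested genes, and the values are scaled as deposited. The other collagens, elastic fibre proteins and matrix proteases spread widely within a group.

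These values depend on how an array is scaled. Centring each array on its own median, taken over all 45037 probe sets, moved the median of all 22518 tested probe sets to 0.08, where it was -0.01 as deposited. It moved the median of the matrix genes to about 0 along with it. By construction it adds the same amount to every log2 fold change. The median signals of the arrays were 22.9 to 27.7, close to the filter level of 23.4, so dim probe sets set that amount. Quantile normalization instead left the median of the tested probe sets at -0.0001, with 27 higher and 19 lower past the adjusted threshold. At an unadjusted p of 0.05 in limma, 2 matrix genes were then lower, where 1.94% of all genes were, and 6 were higher, where 18.4% were.

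The promoters of 5 genes at an unadjusted p under 0.05 in limma are shown. Those with negative fold changes (Plod3, Col1a2, Timp3) can be read beside those with positive ones (Bgn, Thbs2). None of the 5 passed the adjusted test, and the groups of Timp3 overlapped. Timp1, Sparc and Plod1, also lower at that p, had promoters that are not shown. The sequences are those of RefSeq (GRCm38.p6), each a window around the annotated start, on the strand of the gene, at chr5:136986769-136987068 (plus) for Plod3, chr6:4505368-4505667 (plus) for Col1a2, chr10:86300162-86300461 (plus) for Timp3, chrX:73483351-73483650 (plus) for Bgn and chr17:14694213-14694512 (minus) for Thbs2. Capitals mark matches, on either strand, to 5 motifs. The TATA box was searched as TATAAA, the binding motif of NF-Y as CCAAT, the GC box of Sp1 as GGGCGG, the AP-1 motif as TGANTCA and the TEAD motif as GGAATG.
Plod3: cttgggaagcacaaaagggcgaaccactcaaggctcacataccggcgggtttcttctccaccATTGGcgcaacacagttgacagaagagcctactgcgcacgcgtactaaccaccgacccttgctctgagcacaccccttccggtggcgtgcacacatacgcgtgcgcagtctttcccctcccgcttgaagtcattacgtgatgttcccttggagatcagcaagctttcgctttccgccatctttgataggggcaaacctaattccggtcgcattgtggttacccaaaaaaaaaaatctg
Col1a2: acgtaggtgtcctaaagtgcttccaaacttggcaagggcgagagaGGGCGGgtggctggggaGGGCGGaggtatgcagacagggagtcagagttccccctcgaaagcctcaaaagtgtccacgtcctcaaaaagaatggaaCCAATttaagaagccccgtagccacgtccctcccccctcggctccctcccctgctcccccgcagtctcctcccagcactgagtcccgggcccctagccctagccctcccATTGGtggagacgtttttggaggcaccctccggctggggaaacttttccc
Timp3: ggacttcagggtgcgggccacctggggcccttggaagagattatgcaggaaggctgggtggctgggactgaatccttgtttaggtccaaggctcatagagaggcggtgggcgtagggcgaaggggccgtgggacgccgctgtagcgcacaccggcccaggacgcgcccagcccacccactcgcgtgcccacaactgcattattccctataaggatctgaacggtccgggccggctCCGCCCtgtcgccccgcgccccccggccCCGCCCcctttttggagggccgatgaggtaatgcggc
Bgn: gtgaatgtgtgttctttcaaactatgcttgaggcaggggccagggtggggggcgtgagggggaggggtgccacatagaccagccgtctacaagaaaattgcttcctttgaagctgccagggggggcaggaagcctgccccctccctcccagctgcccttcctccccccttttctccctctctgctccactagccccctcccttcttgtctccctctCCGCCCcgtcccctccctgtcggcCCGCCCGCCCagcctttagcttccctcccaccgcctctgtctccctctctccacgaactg
Thbs2: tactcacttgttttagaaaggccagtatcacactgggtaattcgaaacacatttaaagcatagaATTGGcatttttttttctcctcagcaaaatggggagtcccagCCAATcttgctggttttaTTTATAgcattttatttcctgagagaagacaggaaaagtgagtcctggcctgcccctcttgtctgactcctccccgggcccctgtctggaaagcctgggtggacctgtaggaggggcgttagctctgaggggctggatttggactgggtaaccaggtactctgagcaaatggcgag

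The windows differed in which motifs they held. Col1a2 held 2 GC box and 2 CCAAT box matches, Timp3 2 GC box matches, and Plod3 a single CCAAT box match. Bgn held 3 GC box matches, of which 2 overlap, and Thbs2 2 CCAAT box matches and a TATA box match. Each window held 250 bases before the annotated start and 50 after it. Relative to that start, the TATA box match of Thbs2 began at -126, a CCAAT match of Col1a2 at 0 and a GC box match of Timp3 at 13. The matches were named by their letters, whatever their position. No AP-1 or TEAD match was in these windows. Promoters of 25 of the 38 genes (29 windows) were in the table. A GC box was in 69.0% of these windows, against 46.2% of the 21263 windows of protein-coding genes, and a TATA box in 20.7%, against 12.6%. A CCAAT box was in 31%, against 38.2%, and an AP-1 site in 3.45%, against 6.99%. A TEAD site was in 10.3%, against 13.6%. Such matches follow base composition and are descriptions of the letters only.

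Among the fibrillar collagens, Col1a2, which encodes the alpha2 chain of type I collagen, had signals of 3569, 3410.1 and 3704 on the arrays labelled induced, against 3816, 4141 and 3911 on the noninduced arrays. The groups did not overlap, and the fitted level was 9.94% lower (log2 -0.15, SE 0.0479, limma adjusted p = 0.192). Its other bright probe set differed less (log2 -0.05), and the remaining, dim one gave 0.03. Col5a2, a chain of type V collagen, which sets fibril diameter, was the brightest of the role, at 4011, 3905 and 3686 on the arrays labelled induced, against 4184, 4116 and 4259 on the noninduced arrays. Again no array of 1 group reached the other (log2 -0.11, SE 0.0443, limma adjusted p = 0.266), although its dimmer probe set gave 0.04. Both values were smaller after median centring, at -0.06 for Col1a2 and -0.02 for Col5a2. For induced replicate 1 alone within its fluidics run, Col1a2 was at -0.15 and Col5a2 at -0.06. Col5a1, the partner chain of Col5a2, was lower with all 3 of its probe sets (-0.12 to -0.07), none past the test. Col3a1, the type III collagen of compliant tissues, was at -0.05 (95% interval -0.15 to 0.06), with overlapping groups.

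Col1a1, the alpha1 chain that normally pairs with Col1a2, was not among the tested genes. Its brightest probe set read 14.0, 9.59 and 7.98 on the arrays labelled induced, against 19.5, 2.07 and 2.12 on the noninduced arrays. The other Col1a1 probe set read 16.4, 14.1 and 10.1 on the arrays labelled induced, against 2.70 to 3.03 on the noninduced arrays. Both were dim on every array, and no fold is given at this level. Col11a1, a minor fibril component best known from cartilage, had at most 17.0 on the arrays labelled induced and 17.9 on the noninduced arrays.

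Other collagens gave no difference beyond the spread of the arrays. Col8a1, a short-chain collagen, was the brightest of them, with 413, 433 and 398 on the arrays labelled induced, against 365, 399 and 377 on the noninduced arrays. The groups just overlapped, and all 3 of its probe sets were positive (0.06 to 0.19). Col12a1, which decorates fibril surfaces, was at 0.17 with an SE of 0.134. The chains of type VI collagen, the beaded-filament collagen that surrounds muscle fibres, were dim: Col6a1, Col6a2 and Col6a3 averaged 30.2, 47.9 and 48.9 on the arrays labelled induced, against 37.0, 52.3 and 60.9 on the noninduced arrays. Their log2 fold changes of -0.21, -0.09 and -0.25 each had an interval that spanned 0, and all were positive in the single induced array of the first fluidics run (0.06, 0.31 and 0.05).

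The lowest fold change of all matrix genes was that of Plod3, a lysyl hydroxylase that also adds sugars to hydroxylysine. Its probe set read 391, 382 and 498 on the arrays labelled induced, against 609, 577 and 584 on the noninduced arrays. No array overlapped, though induced replicate 3 lay well above the other 2 of its group. The mean was 424 ± 64.5 on the arrays labelled induced and 589.7 ± 16.8 on the noninduced arrays (SD, n = 3 each), with a fitted level 27.8% lower (log2 -0.47, SE 0.0918, 95% interval -0.67 to -0.27). The limma adjusted p was 0.0639. It was 0.0135 without induced replicate 3, the array nearest the noninduced ones, 0.120 to 0.202 without any other array, 0.172 with no filter and 0.293 with no variance trend. Induced replicate 1, set against the noninduced arrays of its own fluidics run, gave -0.57 (limma adjusted p = 0.153, and 0.323 with the run as a block), and median centring gave -0.38. Plod3 has a single probe set, so no other one can be set beside it.

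The other 2 lysyl hydroxylases lay closer to 0. Plod1, the lysyl hydroxylase of helical lysines, read 278, 256 and 236 on the arrays labelled induced, against 291, 315 and 292 on the noninduced arrays. The groups did not overlap (log2 -0.21, SE 0.0835, limma adjusted p = 0.275), but the value was -0.10 within the first fluidics run. Plod2, the hydroxylase of the telopeptide lysines that form stable crosslinks, read 436, 423 and 425 on the arrays labelled induced, against 439.7, 441 and 411 on the noninduced arrays. It was at -0.01, with an interval of -0.15 to 0.14.

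The remaining collagen-processing genes had intervals that spanned 0. Pcolce, the enhancer of procollagen C-proteinase and the brightest gene of the set, read 4959, 4739 and 4768 on the arrays labelled induced, against 5221, 4713 and 4619.8 on the noninduced arrays. The groups overlapped (log2 -0.01, interval -0.12 to 0.10), although its dimmer probe set was lower without overlap (-0.17, limma adjusted p = 0.218). Serpinh1, which encodes HSP47, was at -0.05 (interval -0.16 to 0.05). Lox, the lysyl oxidase that starts crosslinking, averaged 2380.0 ± 91.6 on the arrays labelled induced and 2367 ± 95.4 on the noninduced arrays (SD, n = 3 each). Both of its tested probe sets were at 0.01, and the interval of the brighter one was -0.10 to 0.12. Loxl1, the oxidase associated with elastin, was at -0.17 with overlapping groups (limma adjusted p = 0.389).

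**Figure D3:**
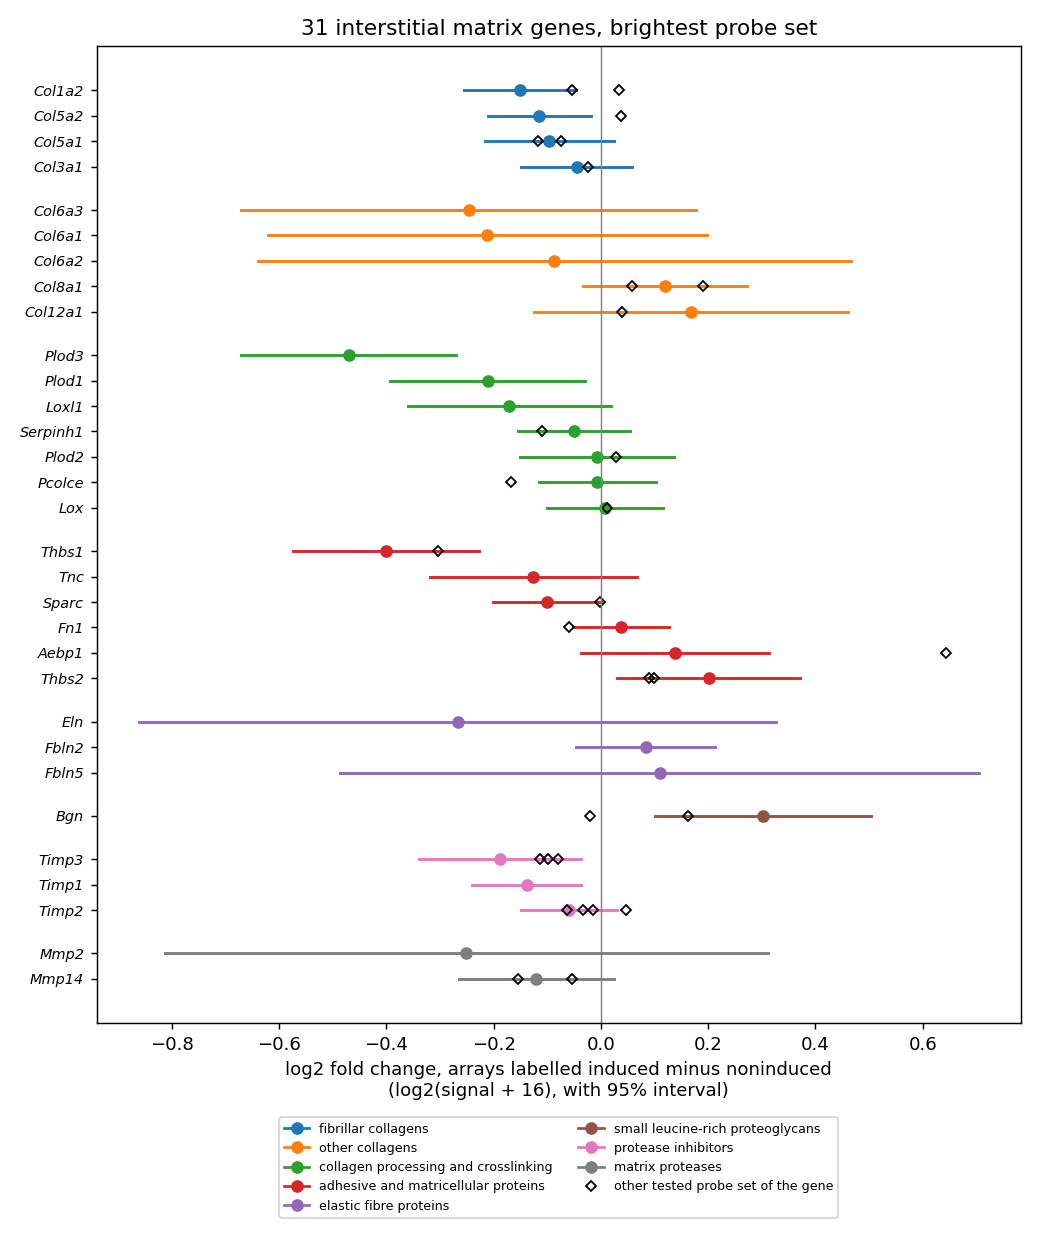
Log2 fold change of induced over noninduced arrays (horizontal axis) with its 95% interval for the brightest probe set of each of the 31 tested matrix genes, ordered by role, and for the other tested probe sets of a gene (open diamonds). The interval of Plod3, at -0.67 to -0.27, and that of Thbs1, at -0.57 to -0.23, lie farthest below 0, and the diamond of Aebp1 at 0.64 stands apart from its brighter probe set at 0.14.

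Thbs1 and Thbs2, the trimeric thrombospondins, had fold changes of opposite sign. Thbs1, an activator of latent TGF-beta, read 2659, 2821 and 2399.9 on the arrays labelled induced, against 3057, 3522 and 3864 on the noninduced arrays. All 3 arrays labelled induced were below all noninduced arrays, with means of 2627 ± 212 on the arrays labelled induced and 3481 ± 405 on the noninduced arrays (SD, n = 3 each). The fitted level was 24.3% lower (log2 -0.40, SE 0.0797, limma adjusted p = 0.0695). Without noninduced replicate 1, the lowest of its group, the limma adjusted p was 0.0356. It was 0.0992 to 0.192 without any other array, 0.195 with no filter and 0.308 with no variance trend. The other Thbs1 probe set was also lower without overlap (log2 -0.30, limma adjusted p = 0.149). Induced replicate 1 gave -0.38 within its fluidics run (limma adjusted p = 0.391, and 0.438 with the run as a block), and median centring gave -0.31.

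Thbs2, an inhibitor of angiogenesis that also limits metalloprotease activity, read 444, 417 and 479 on the arrays labelled induced, against 356, 398 and 406 on the noninduced arrays. The groups were apart (log2 0.20, SE 0.0782, limma adjusted p = 0.269). Its other 2 probe sets were also positive, at 0.09 and 0.10, with overlapping groups. Median centring gave 0.29 for the brightest Thbs2 probe set.

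Aebp1, a secreted collagen-binding protein also known as ACLP, gave different sizes with its 2 tested probe sets. The brighter one read 316, 311 and 323 on the arrays labelled induced, against 274, 315 and 271 on the noninduced arrays, and did not pass (log2 0.14, limma adjusted p = 0.454). The dimmer one rose: it read 214, 209 and 236 on the arrays labelled induced, against 144, 139 and 122 on the noninduced arrays. It was 56.2% higher (log2 0.64, SE 0.0968, limma adjusted p = 0.0219). That call was lost when any array other than noninduced replicate 1 was left out (adjusted p 0.0591 to 0.102), with the fold change at 0.58 to 0.68. The dimmer probe set was at 0.61 for the single induced array of the first fluidics run. Median centring gave 0.74 (limma adjusted p = 0.0086).

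Sparc, a calcium-binding matricellular protein that binds collagen, read 3082, 2916 and 3014 on the arrays labelled induced, against 3373, 3148 and 3149.9 on the noninduced arrays. The groups were apart by a small step (log2 -0.10, SE 0.0462, limma adjusted p = 0.340), and its other tested probe set averaged 2129 ± 68.3 on the arrays labelled induced and 2133 ± 113 on the noninduced arrays (SD, n = 3 each). Fn1, fibronectin, the main adhesive protein of the young matrix, was among the tightest measurements. It read 2725, 2729.6 and 2678 on the arrays labelled induced, against 2632, 2649 and 2641 on the noninduced arrays. Its groups were apart in the upward direction, and its difference of 0.04 had an interval of -0.05 to 0.13, and its dimmer probe set was at -0.06. Tnc, tenascin C, which loosens cell attachment, was at -0.13 with overlapping groups. Postn, periostin, lay below the tested range, at 3.98 to 23.0 on the arrays labelled induced and 16.4 to 22.2 on the noninduced arrays.

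Of the small leucine-rich proteoglycans, which coat collagen fibrils, Bgn (biglycan) was the single tested gene. It read 295, 330.2 and 349.9 on the arrays labelled induced, against 266, 233 and 284 on the noninduced arrays. The groups did not overlap, and this was the highest fold change among the brightest probe sets (log2 0.30, SE 0.0927, limma adjusted p = 0.178). Its 2 other probe sets gave 0.16, without overlap, and -0.02, with overlap. The brightest Bgn probe set was at 0.17 within the first fluidics run and at 0.40 after median centring. Dcn, decorin, was dim throughout, at 2.05, 5.47 and 3.08 on the arrays labelled induced, against 9.33, 9.71 and 15.7 on the noninduced arrays. Lum, lumican, read at most 8.03 on the arrays labelled induced and 21.8 on the noninduced arrays.

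Elastic fibre genes showed no difference beyond their spread. Fbln2, fibulin 2, was the bright one, with 823, 860.2 and 789 on the arrays labelled induced, against 750.3, 808 and 770.4 on the noninduced arrays (log2 0.08, interval -0.05 to 0.21). Eln, elastin, averaged 24.5 ± 1.23 on the arrays labelled induced and 35.4 ± 18.6 on the noninduced arrays (SD, n = 3 each), with noninduced replicate 1 at 14.0. Fbln5, fibulin 5, which helps to assemble elastin, was at 0.11 with an interval of -0.49 to 0.70.

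The inhibitors of metalloproteases were all bright, and all had negative log2 fold changes, though that of Timp2 was positive after median centring (0.03). Timp1 read 1939, 2047 and 2041 on the arrays labelled induced, against 2149, 2250.1 and 2238 on the noninduced arrays. Its groups did not overlap, with a level 9.14% lower (log2 -0.14, SE 0.0467, limma adjusted p = 0.212). Timp3, the TIMP that binds to the matrix itself, read 1809, 2023 and 1718 on the arrays labelled induced, against 1929, 2190.5 and 2209 on the noninduced arrays. Induced replicate 2 reached above noninduced replicate 1, so its groups overlapped (log2 -0.19, SE 0.0693, limma adjusted p = 0.244). All 4 Timp3 probe sets were negative (-0.19 to -0.08).

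Timp2, which also takes part in activating pro-MMP2, was the brightest inhibitor and differed least. It read 3279, 3324 and 3407 on the arrays labelled induced, against 3440.5, 3538 and 3449.7 on the noninduced arrays. The groups were apart, but the step was small (log2 -0.06, SE 0.0410, limma adjusted p = 0.537), and its 5 tested probe sets ranged from -0.06 to 0.05. After median centring the values were -0.05 for Timp1, -0.10 for Timp3 and 0.03 for Timp2.

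Mmp14, the membrane-bound metalloprotease MT1-MMP, a collagenase that activates pro-MMP2, had a negative log2 fold change that did not pass the test. It read 651, 642 and 647 on the arrays labelled induced, against 668, 770.5 and 679 on the noninduced arrays. The groups did not overlap (log2 -0.12, SE 0.0664, limma adjusted p = 0.427), and its other probe sets gave -0.05 and -0.15. Mmp2 itself, gelatinase A, was near the limit of the tested range, at 25.2, 33.8 and 9.08 on the arrays labelled induced, against 28.3, 26.3 and 30.3 on the noninduced arrays. Its lower mean rests on induced replicate 3, and without that array the log2 fold change was 0.03.

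**Figure D4:**
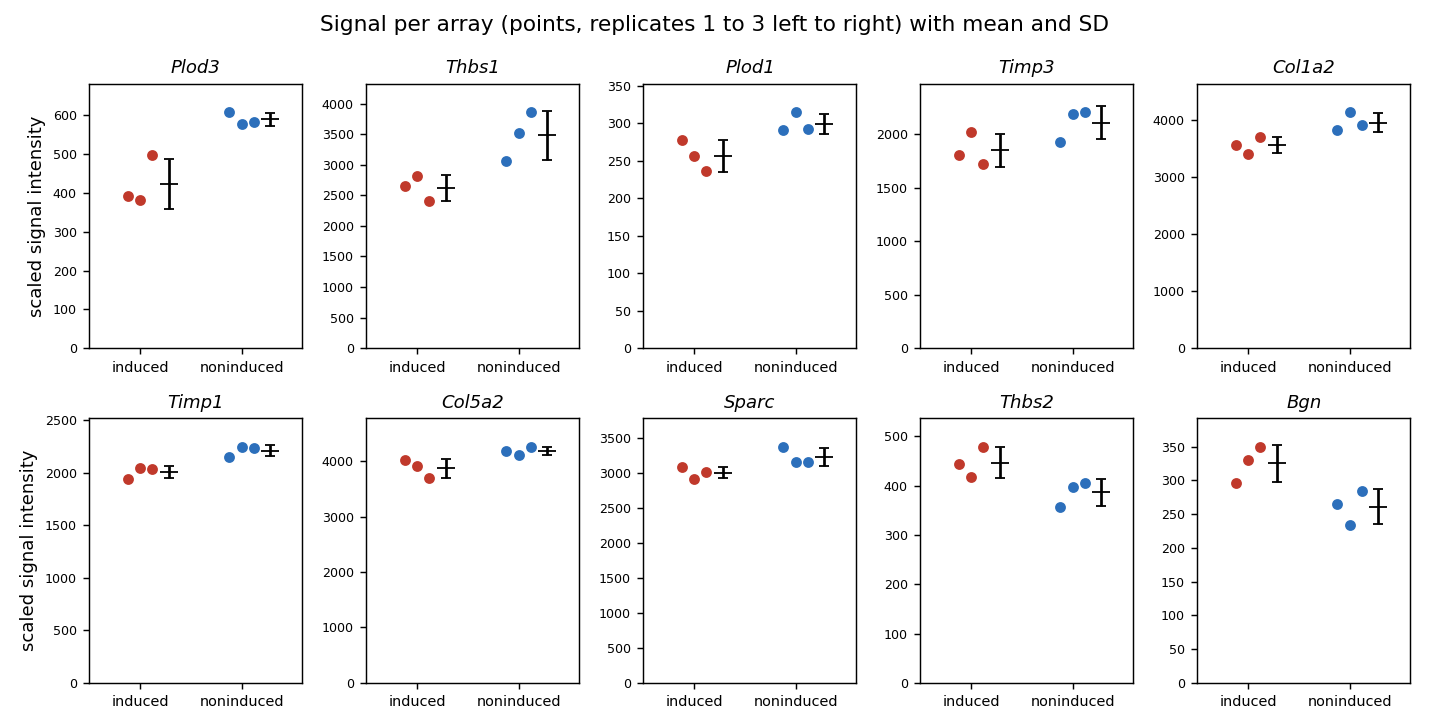
Scaled signal intensity (vertical axes, from 0) per array for the 10 matrix genes at an unadjusted p under 0.05, as points for replicates 1 to 3 of the arrays labelled induced (red) and noninduced (blue), with mean and SD (black). The groups stand apart in all of them except Timp3, where induced replicate 2 at 2023 exceeds noninduced replicate 1 at 1929.

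Probe sets of 1 gene share its RNA and serve as a check of the reading. Of the 19 matrix genes with more than 1 tested probe set, 13 had the same sign in all of them. The 6 with mixed signs were Bgn, Col1a2, Col5a2, Fn1, Plod2 and Timp2. When all tested probe sets of a gene were averaged, Aebp1 was at 0.39 (limma adjusted p = 0.0552), Thbs1 at -0.35, Thbs2 at 0.13, Bgn at 0.15, Col1a2 at -0.06, Col5a2 at -0.04 and Sparc at -0.05. Plod3, Plod1 and Timp1, each with 1 tested probe set, kept their values.

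Other genes of matrix production gave a mixed picture. Of 83 listed, 75 had a probe set and 50 were tested. None passed the adjusted test, 3 were past an unadjusted p of 0.01 in limma, where 5.63% of all genes were, and the median was 0.04. At an unadjusted p of 0.05, 6 of the 50 were higher and 6 lower, against 7.96% and 7.99% of all genes tested. Among the 15 other collagen-making genes tested, those past an unadjusted p of 0.01 were lower. Ppib, the collagen prolyl isomerase cyclophilin B, averaged 3542 on the arrays labelled induced and 4069 on the noninduced arrays (log2 -0.20, limma adjusted p = 0.0695). P4hb, the beta subunit of prolyl 4-hydroxylase, averaged 3400.1 on the arrays labelled induced and 3809 on the noninduced arrays (log2 -0.16, limma adjusted p = 0.122). Among 15 TGF-beta signalling genes tested, 13 had a positive log2 fold change, where 47.8% of all genes tested did, and their median was 0.08. At an unadjusted p of 0.05 in limma, 3 of the 15 were higher and 0 lower, against 7.96% and 7.99% of all genes tested. Ltbp1, which anchors latent TGF-beta in the matrix, averaged 799.7 on the arrays labelled induced and 680.3 on the noninduced arrays (log2 0.23, limma adjusted p = 0.159). The 12 other interstitial matrix genes and the 8 other proteases and inhibitors tested had medians of -0.01 and 0.06, and none was past an unadjusted p of 0.01.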

How the data were processed

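Total RNA of the 6 samples was hybridised to Affymetrix Mouse 430 2.0 arrays, 1 per sample. The deposited values are linear signal intensities per probe set, produced by the authors in GCOS 1.1.1, as recorded per the submitters' processing notes. Algorithm settings and detection calls are not given in the labels. With 2% trimmed from either end, every array averaged 150.0, so the deposited intensities are scaled, and a change shared by most transcripts would not show. The instrument records (unit other, per the file headers) gave hybridisation times and scan order. Fluidics runs were inferred from the hybridisation times, with a new run after a gap of more than 30 minutes. The number of arrays limits the precision.

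Samples were grouped by title. After 64 control probe sets were set aside, 45037 remained, of which 34945 had 1 gene in the platform annotation, 932 several and 9160 none listed. Values were taken to log2(value + 16), which understates changes of dim genes. Those brighter than the median of 23.4 on average, 22518 in all, entered limma 3.58.1 under R 4.3.3 (variance trend, Benjamini-Hochberg over all of them, threshold 0.05). The fit was checked on simulated data. Genes named were all members, with each array given for those at an unadjusted p under 0.05 with groups apart and the brightest of each role, and other genes of the pathway past an unadjusted p of 0.01. The alternatives were pseudocounts of 1 and 64, other filters, quantile normalization, median centring, other variance models, blocks, leaving out arrays, averaging the probe sets of a gene, and the first fluidics run alone (chosen after seeing the data). The members, lists and tests were chosen with earlier results of these data known.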

Additional observations from a re-analysis of the deposited data

How the results depend on the processing

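The log2 fold changes of the 31 tested matrix genes were recomputed under 18 alternatives, which gave 551 values. Of these, 515 kept their direction and their side of the adjusted threshold, 33 changed sign, and 3 came past the threshold: Plod3 with a filter at the 75th percentile (adjusted p = 0.0491) and without induced replicate 3, and Thbs1 without noninduced replicate 1. Sign changes touched 12 genes, all of them near 0 or dim, and 19 genes never changed sign. Where no cause is evident from the construction of an alternative, it was not tested.

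Leaving out arrays gave 0 to 50 adjusted probe sets in place of 45, with 0 when induced replicate 1 was left out, 11 for induced replicate 2, 1 for noninduced replicate 2 and 8 for noninduced replicate 3. It gave 0 to 2 matrix probe sets, 0 to 1 matrix genes past the adjusted test, 5 to 8 lower genes (5 when induced replicate 1 or 3 was left out) and 1 to 3 higher genes (1 for induced replicate 1 or 3 or noninduced replicate 1) at an unadjusted p of 0.05, and medians of -0.107 to -0.067 for all matrix genes, -0.129 to -0.092 for fibrillar collagens and -0.285 to 0.0838 for other collagens, -0.0428 to 0.0029 for adhesive and matricellular genes, -0.0831 to 0.113 for elastic fibre genes and -0.288 to -0.0439 for proteases. Genes that changed sign ranged over -0.352 to 0.127 for Col6a2, -0.0394 to 0.0101 for Plod2, -0.0411 to 0.0469 for Pcolce, -0.0239 to 0.0389 for Lox, -0.461 to 0.0333 for Mmp2 and -0.193 to 0.269 for Fbln5.

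Median centring gave 306 adjusted probe sets, 2 lower and 6 higher matrix genes, and medians of -0.0027 for all matrix genes, -0.012 for fibrillar collagens, 0.043 for processing and crosslinking, 0.062 for adhesive and matricellular genes and -0.045 for inhibitors. Col3a1 was then at 0.048, Col6a2 at 0.0067, Serpinh1 at 0.043, Plod2 at 0.086, Pcolce at 0.086 and Timp2 at 0.035. Quantile normalization left 46 adjusted probe sets.

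The fluidics run as a block and the first run alone, which both rest on 1 induced array, gave 0 adjusted probe sets (1923 and 1976 at an unadjusted p under 0.05), 0 matrix probe sets, 4 and 5 lower and 0 and 0 higher matrix genes, and in both fits medians of -0.055 for all matrix genes, -0.080 for fibrillar collagens and 0.010 for adhesive and matricellular genes. In both, Col6a1 was at 0.060, Col6a2 at 0.31, Col6a3 at 0.047, Plod2 at 0.018, Pcolce at 0.034 and Lox at -0.024.

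Without a variance trend 0 probe sets passed (2817 at an unadjusted p under 0.05), 0 of them matrix ones, with 3 lower and 1 higher matrix genes. With no filter 1 probe set passed and 0 matrix ones, and the medians of fibrillar and of adhesive and matricellular genes, now with dim members, were -0.071 and -0.10. A filter at the 75th percentile, with fewer probe sets tested, gave 102 adjusted probe sets, 2 matrix probe sets, 1 matrix gene and a median of 0.12 for the other collagens left. Robust moderation gave 74 probe sets. Averaging the probe sets of a gene gave 4 lower matrix genes, a fibrillar median of -0.048, Plod2 at 0.010 and Fn1 at -0.011.

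The replicate block gave 5 adjusted probe sets and 0 matrix ones. Deviations of same-numbered arrays from their group means correlated at 0.012, -0.063 and -0.0088, so they gave no sign that the numbers pair the samples.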
